A study of Mus musculus with 20 samples.

Results

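Gene expression after 24 hours of RANKL was compared with that after 14 hours of RANKL in the RAW264.7 line of mouse macrophage-like cells, which can differentiate into osteoclasts in response to this cytokine. The comparison used 4 of the study's 20 libraries, 2 at 24 hours and 2 at 14 hours of RANKL (50 ng per ml), chosen by treatment and time alone, and every gene of the count table. The other 16 libraries came from untreated cells (hour 0), from cells at 4 hours of RANKL, and from cells given the BET bromodomain inhibitor I-BET (500 nM), alone or together with RANKL, for 4, 14 or 24 hours, with 2 libraries in each of the 10 groups. They shared in the estimate of the spread, and those at 14 and 24 hours showed the same interval with the inhibitor present. The labels name the same cell line in every group and no genetic change in any of them. They also give bone marrow as the source, but the samples are of the cell line and not of fresh tissue. Untreated cells were sampled at hour 0 only, so effects of RANKL and of time in culture cannot be told apart over these 10 hours. The labels do not state whether the 2 libraries of each group were grown as separate cultures, so p-values measure only the spread between these samples.

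RANKL binds its receptor RANK on myeloid precursors and signals through TRAF6, NF-kB and MAP kinases to Fos and the calcium-dependent factor Nfatc1, the main transcriptional regulators of osteoclast formation. These factors turn on genes of cell fusion and of bone resorption, such as the collagen-degrading protease cathepsin K and the enzymes that supply and pump acid. Precursors also carry repressors of this programme, among them Bcl6, Irf8 and Id proteins, and they keep macrophage and interferon-response genes that are less expressed in the mature osteoclast.

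Total counts of the 4 libraries ran from 40105379 to 51427141, and those of all 20 from 19051780 to 62313792. Mitochondrial transcripts took 3.14% to 3.89% of the counts in the 4 libraries. Transcripts of 5 genes related to ribosomal RNA took 0.676% and 0.393% at 14 hours and 1.19% and 0.517% at 24 hours, with the highest share in 24-hour library 1; their part in the results was not tested. Untreated library 2 held 10.1% of its counts in these 5 genes. It entered the 14 to 24 hour comparison through the spread, and its values also stand in the hour 0 levels given below. Macrophage markers were present at both times, with Csf1r at 1118 to 1531 CPM (counts per gene scaled to a common library size, so that levels of 1 gene can be compared between libraries) and Cd68 at 408 to 535 CPM in the 4 libraries. The osteoclast markers Acp5, Ctsk and Nfatc1 were present as well, whereas Itgb3, the beta3 integrin of mature osteoclasts, had between 0 and 8 counts per library and Calcr, the calcitonin receptor, had at most 1 count in any library and was not tested. Of the markers of other cell types, no lymphocyte gene and 1 of 11 neutrophil or mast cell genes passed the filter on low counts. Dendritic cell markers summed to 13.9 and 9.24 CPM at 14 hours and to 7.60 and 7.31 CPM at 24 hours, with 5 of 10 tested, none called, 2 called lower with the replicate block described below, and a median log2 change of -0.76; their part in the results was not tested. In bulk RNA, fewer cells of a type and less RNA per cell cannot be told apart.

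From 14 to 24 hours of RANKL 181 genes rose and 285 fell among 16042 genes tested, 2.9% in all, 1.13% higher and 1.78% lower. A gene was called, here and below, when its adjusted p from edgeR's quasi-likelihood test (Benjamini-Hochberg over all tested genes) was under 0.05. A fit that also took the library number as a replicate block called 1033 higher (6.44%) and 1674 lower (10.4%). These shares of all tested genes are the background for every count of list members below. The rises had a median log2 fold change of 0.87 and 74 of them exceeded 1, the falls a median of -0.79 with 97 beyond -1. In every called gene the libraries of the 2 times did not overlap. Over all tested genes 2657 (16.6%) were higher and 3114 (19.4%) lower in both 24-hour libraries than in both 14-hour libraries, and the median change was -0.0021.

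The number and the direction of the calls depended on single libraries. Of the calls 38.8% were higher, and this share was 26.5% without 14-hour library 1 (57 higher, 158 lower), 42.4% without 14-hour library 2 (73 and 99), 62.3% without 24-hour library 1 (170 and 103) and 33.5% without 24-hour library 2 (58 and 115). A fit of these 4 libraries alone called no gene, with 1222 genes at an unadjusted p under 0.05 against 2361 in the fit of all libraries, while DESeq2 on all libraries called 372 higher and 581 lower.

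**Figure D1:**
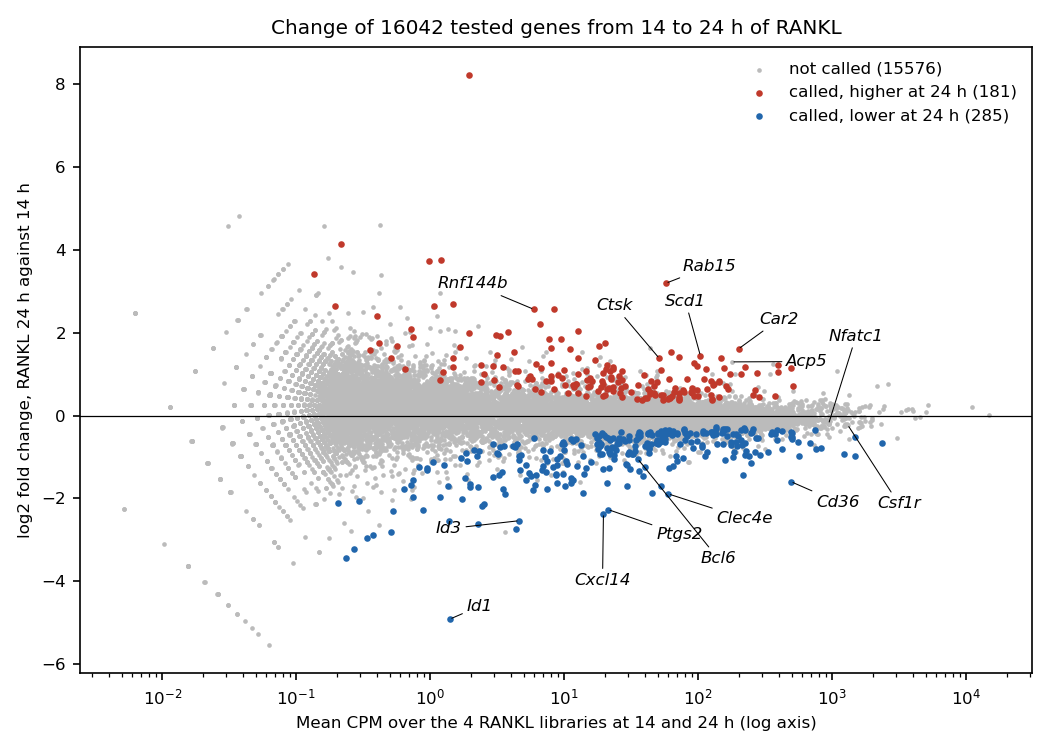
Change from 14 to 24 hours of RANKL against expression level. Each point is 1 of 16042 tested genes, with the mean CPM of the 4 libraries on a log axis and the log2 fold change on the vertical axis. The 181 rises and 285 falls are coloured, Rab15 (3.19) and Id1 (-4.91) lie far from 0, and Nfatc1 (-0.20) and Csf1r (-0.23) lie close to it.

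Genes of resorption and acid secretion held 2 called rises and 1 called fall. Car2, carbonic anhydrase II, which supplies the protons for acid secretion, lies on chromosome 3 (14886273 to 14900770, plus strand, mm10) and measured 95.6 and 102 CPM at 14 hours and 268 and 334 CPM at 24 hours. Both later libraries exceeded both earlier ones by more than the spread between replicates, and Car2 rose by 1.61 on the log2 scale (SE 0.16, adjusted p = 0.0002). Ctsk, cathepsin K, on chromosome 3 (95499286 to 95509362, plus strand), had 30.1 and 26.7 CPM at 14 hours and 88.6 and 59.4 CPM at 24 hours, a rise of 1.38 (SE 0.16, adjusted p = 0.00051). The calls of Car2 and Ctsk held with each of the 4 libraries left out in turn.

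Acp5, the tartrate-resistant acid phosphatase used as the classical osteoclast stain, had 111 and 95.3 CPM at 14 hours and 253 and 254 CPM at 24 hours. Its change of 1.29 (SE 0.40) was not called (adjusted p = 0.118), but it was with the replicate block (0.000624) and by DESeq2 (0.0369). Mmp9, the gelatinase B of osteoclasts, had 10.1 and 10.3 CPM and then 37.4 and 16.5 CPM. The second 24-hour library of Mmp9 lay much closer to the earlier time than the first, and its change of 1.41 (SE 0.39) had an adjusted p of 0.0854, of 0.00565 with the block, of 0.0256 by DESeq2 and of 0.0396 without 24-hour library 2. Atp6v0d2, a proton pump subunit that also acts in fusion, had 111 and 58.0 CPM and then 202 and 139 CPM. In each pair of same-numbered libraries Atp6v0d2 was higher at 24 hours, and its adjusted p was 0.48 without and 3.01e-06 with the block (change 1.01, SE 0.59). Oscar, an immunoglobulin-like costimulatory receptor, had 8, 2, 24 and 11 counts in the 4 libraries, with an adjusted p of 0.195 and of 0.0207 with the block.

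Acp2, a lysosomal acid phosphatase, went the other way, from 39.9 and 42.2 CPM to 30.3 and 29.1 CPM (-0.46, SE 0.11, adjusted p = 0.0329). Its call was lost with any of the 4 libraries left out (0.0992 without 14-hour library 1, 0.187 without 14-hour library 2, 0.106 without 24-hour library 1 and 0.181 without 24-hour library 2). Of 17 tested genes of resorption and acid secretion 2 rose and 1 fell, with a median change of 0.07 (7 and 2 with the block). Of 17 proton pump subunits 2 rose, Atp6v1a from 395 and 374 to 624 and 633 CPM (0.71, SE 0.09, adjusted p = 0.00103) and Atp6v1d from 35.2 and 36.5 to 63.2 and 61.5 CPM (0.80, SE 0.10, adjusted p = 0.00051). Both subunits belong to the cytosolic, ATP-hydrolysing sector of the pump. No subunit fell, the median of the 17 was 0.01, and the block called 4 higher. Per gene length, Acp5 and Car2 were at similar levels at 24 hours (deposited RPKM of 126 and 121 for Acp5, 111 and 134 for Car2), above Ctsk (59.0 and 38.0) and Mmp9 (10.6 and 4.53).

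**Figure D2:**
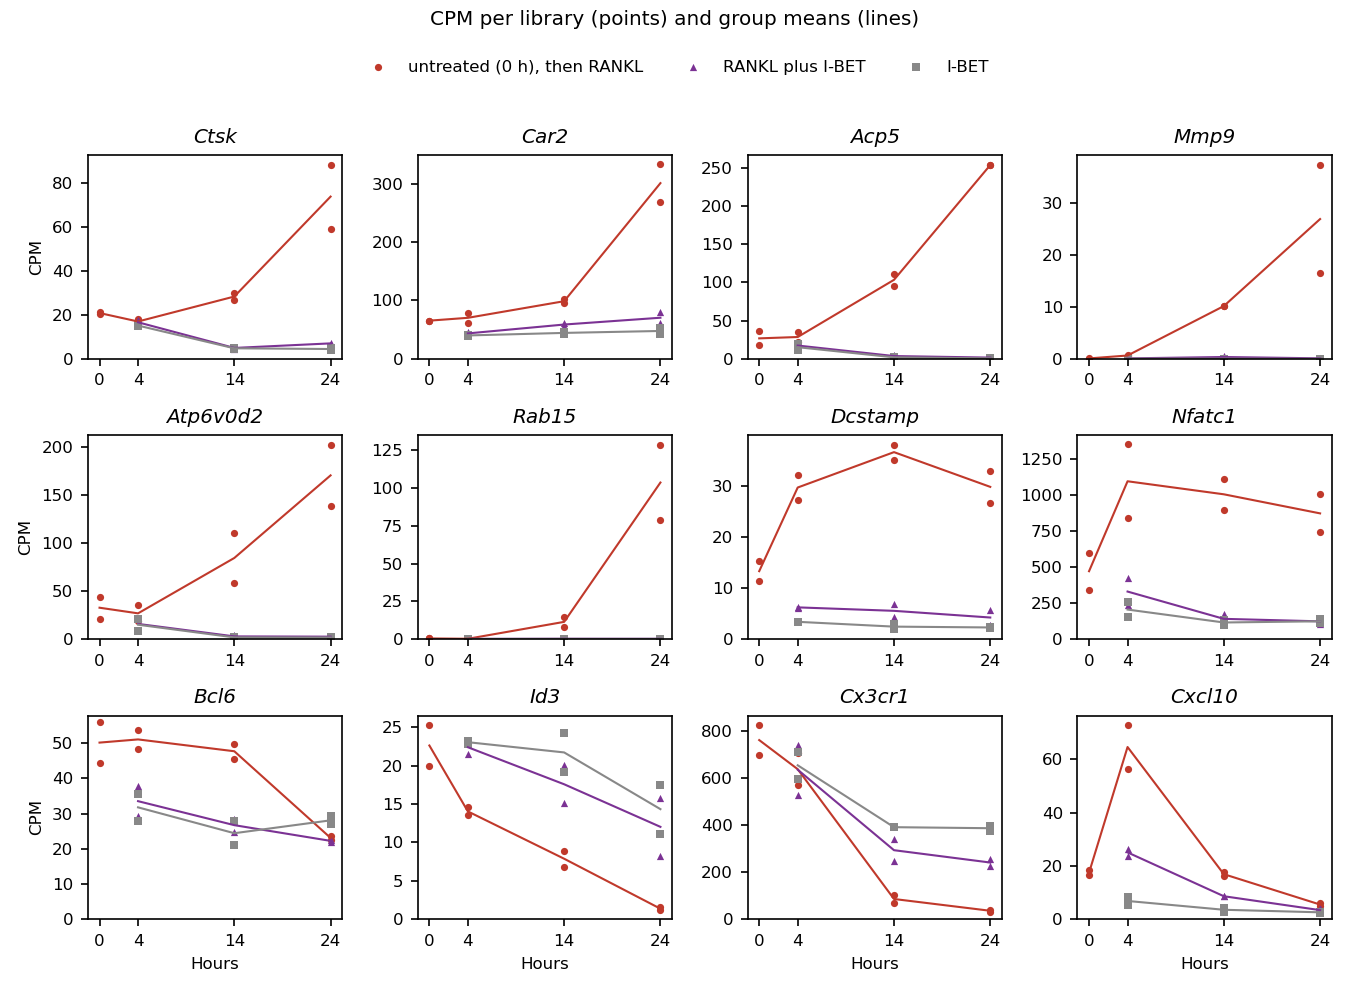
CPM of 12 genes in every library against hours of treatment. Points are libraries and lines join group means, for untreated cells followed by RANKL (red), RANKL plus I-BET (purple) and I-BET (grey). Ctsk, Car2 and Rab15 were highest at 24 hours of RANKL, whereas Dcstamp and Nfatc1 at 24 hours lay within or next to their 14-hour values.

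No tested osteoclast transcription factor or fusion gene was called higher over these hours. Only 1.13% of all tested genes were called higher, so the absence of rises does not set these lists apart. Nfatc1 had 1115 and 896 CPM at 14 hours and 1005 and 740 CPM at 24 hours, so that the 2 times overlapped (-0.20, SE 0.37, adjusted p = 0.868). Tnfrsf11a, which encodes RANK, had 361 and 268 and then 340 and 226 CPM (-0.15, SE 0.39, adjusted p = 0.916). Fos had 223 and 221 and then 140 and 127 CPM, with no overlap, a change of -0.73 (SE 0.28) and an adjusted p of 0.215 that became 0.0234 with the block. Its AP-1 partner Jun fell from 25.8 and 35.8 to 16.1 and 16 CPM (-0.94, SE 0.22, adjusted p = 0.0373), a call lost without 14-hour library 2 (0.296), 24-hour library 1 (0.151) or 24-hour library 2 (0.184). Of 21 tested osteoclast transcription factors none rose and Jun alone fell (2 and 7 with the block, median -0.20). Prdm1, which encodes Blimp1, a factor that represses other repressors, had 9.79 and 4.13 and then 18.7 and 8.32 CPM. Prdm1 was higher at 24 hours within each library number but the times overlapped, and its change of 0.96 (SE 0.47) had an adjusted p of 0.378 and of 0.00489 with the block.

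Dcstamp and Ocstamp, membrane proteins needed for fusion of precursors, did not pass the test. Dcstamp had 38.2 and 35.2 and then 33.0 and 26.7 CPM (-0.30, SE 0.28, adjusted p = 0.707), and Ocstamp had 25.0 and 22.6 and then 26.8 and 17.1 CPM (-0.12, SE 0.26, adjusted p = 0.896). Of 16 tested fusion genes none rose and 2 fell (1 and 7 with the block, median -0.24). Cd36, a scavenger receptor for lipids, fell from 813 and 670 to 254 and 236 CPM (-1.60, SE 0.34, adjusted p = 0.0222). Cd44, the hyaluronan receptor, fell from 812 and 675 to 431 and 328 CPM (-0.97, SE 0.21, adjusted p = 0.0248). The Cd36 call was lost without 14-hour library 1 (0.112) or 2 (0.0614) and without 24-hour library 1 (0.105) or 2 (0.152), and that of Cd44 without 14-hour library 1 (0.146) or 2 (0.0539) and without 24-hour library 2 (0.195).

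Of 31 genes of RANK and costimulatory signalling 1 rose and 1 fell (2 and 6 with the block, median -0.08). Syk, the kinase that acts below the costimulatory receptors, rose from 41.2 and 38.2 to 56.3 and 55.4 CPM (0.49, SE 0.08, adjusted p = 0.00534). Plcg2, the phospholipase that links Syk to calcium release, fell from 166 and 183 to 145 and 135 CPM (-0.31, SE 0.08, adjusted p = 0.0401). Among 21 calcium and calcineurin genes, Rcan1, a calcineurin inhibitor that is itself an NFAT target, fell from 157 and 142 to 79.0 and 83.9 CPM (-0.87, SE 0.20, adjusted p = 0.0315), and no member rose (1 and 7 with the block, median -0.20). The call of Syk was lost without 14-hour library 2 (0.0862). Those of Plcg2 and Rcan1 were lost without 14-hour library 1 (0.0554 and 0.153), 14-hour library 2 (0.286 and 0.0906), 24-hour library 1 (0.0862 and 0.156) and 24-hour library 2 (0.229 and 0.138), and that of Plcg2 also without untreated library 2 (0.0562).

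Of 13 tested repressors of osteoclast genes none rose and 4 fell (0 and 8 with the block), with a median of -0.74 against -0.0021 over all tested genes. The members were not uniform, as 8 had a negative and 5 a positive change, the highest at 0.62. The share called lower over all tested genes was 1.78%, and 10.4% with the block. Id1 and Id3 are inhibitors of helix-loop-helix transcription factors. Id1, on chromosome 2 (152736251 to 152737410, plus strand), had 3.30 and 2.13 CPM at 14 hours and 0.0743 and 0.101 CPM at 24 hours, the steepest fall among the named genes (-4.91, SE 0.43, adjusted p = 0.000103). These CPM stand for 160, 102, 3 and 4 counts. Id3 had 8.90 and 6.83 and then 1.19 and 1.51 CPM, a change of -2.54 on the log2 scale (SE 0.33, adjusted p = 0.000877). Bcl6, a zinc finger repressor that binds osteoclast genes in precursors, lies on chromosome 16 (23965052 to 23988852, minus strand) and had 49.9 and 45.6 and then 22.4 and 23.8 CPM (-1.05, SE 0.17, adjusted p = 0.00416). The calls of Id1, Id3 and Bcl6 held with each of the 4 libraries left out.

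Irf8, an interferon regulatory factor that binds and inhibits Nfatc1, had 6.59 and 10.8 and then 4.14 and 6.26 CPM, without overlap. The change of Irf8 was -0.74 (SE 0.33) with an adjusted p of 0.321 and of 0.000244 with the block.

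Of 33 tested genes of the type I interferon response 13 fell and none rose (29 and 0 with the block). The other 20 did not pass the test. The median was -0.92, all 33 had a negative fitted change, and in 29 both 24-hour libraries lay below both 14-hour libraries. Over all tested genes 1.78% were called lower and 19.4% lay apart in this direction. Many of these genes share a DNA element in front of their start, the interferon-stimulated response element (ISRE), which binds interferon regulatory factors and the STAT complex. The letters GAAA, any 2 bases and GAAA again, read on either strand in the 250 bases before the first start that RefSeq lists (GRCm38.p6), were found in 11 of 24 list members with a promoter entry (45.8%), in 5 of the 10 called ones (50.0%) and in 2.73% of 9644 tested genes. Over all called genes the share was 4.67% of 214 falls and 4.41% of 136 rises. The same windows were searched on both strands for an AP-1 site (TGANTCA), an E-box (CACGTG) and an M-box (TCATGTG). The AP-1 letters stood in 4.41% of tested genes, 10.3% of falls, 6.62% of rises, 29.2% of the 24 interferon genes (7) and 4 of the 10 called ones. The E-box stood in 8.45% of tested genes, 8.88% of falls and 8.82% of rises, and the M-box in 1.77%, 1.4% and 1.47%. The 5 called members that hold the element are shown with 1 match each, written along the gene's strand with the match in capitals.
Cxcl10, chr5:92349075-92349120, minus strand: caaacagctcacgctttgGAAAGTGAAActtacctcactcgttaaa
Ifit1, chr19:34640767-34640812, plus strand: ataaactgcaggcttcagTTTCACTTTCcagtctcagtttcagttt
Ifit3, chr19:34583355-34583400, plus strand: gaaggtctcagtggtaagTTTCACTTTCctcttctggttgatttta
Rsad2, chr12:26456545-26456590, minus strand: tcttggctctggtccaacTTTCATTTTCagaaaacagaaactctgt
Trim30a, chr7:104465202-104465247, minus strand: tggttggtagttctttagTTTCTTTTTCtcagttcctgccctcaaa

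The match of Cxcl10 reads along the gene and the other 4 shown read on the opposite strand. A match is a description of the letters and no measure of binding in these cells.

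Cxcl10, a chemokine induced by interferon, had 16.1 and 17.6 CPM at 14 hours and 4.73 and 6.18 CPM at 24 hours, a fall of 1.63 on the log2 scale (SE 0.25, adjusted p = 0.00241). Rsad2, the antiviral enzyme viperin, went from 4.98 and 5.89 to 1.64 and 1.51 CPM (-1.78, SE 0.29, adjusted p = 0.00425). Parp14, an ADP-ribosyltransferase, went from 47.7 and 56.1 to 20.7 and 20.1 CPM (-1.35, SE 0.19, adjusted p = 0.00147). Cmpk2, a mitochondrial nucleotide kinase, went from 7.33 and 10.8 to 3.17 and 3.53 CPM (-1.43, SE 0.24, adjusted p = 0.00548). In all of these the 2 times were apart by more than the libraries of either time differed. The calls of Cxcl10 and Parp14 held with each of the 4 libraries left out, that of Rsad2 was lost without 24-hour library 2 (0.0558), and that of Cmpk2 without 14-hour library 2 (0.0654) or 24-hour library 1 (0.0568). Ifit1, Ifit3 and Trim30a, named here for their promoters after their values were seen, fell by 1.44, 2.28 and 0.92 (SE 0.29, 0.54 and 0.23), with adjusted p of 0.0147, 0.0375 and 0.0442. Their calls were lost without 14-hour library 2 (0.0917, 0.138 and 0.176) and without 24-hour library 2 (0.143, 0.203 and 0.148), those of Ifit3 and Trim30a without 14-hour library 1 (0.112 and 0.153), and that of Trim30a without 24-hour library 1 (0.22). Ifit and Trim30 genes have near-identical neighbours, between which reads may have been split. The count of called interferon genes was 3 without 14-hour library 2, 5 without 24-hour library 1 and 4 without 24-hour library 2. It was 20 by DESeq2.

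**Figure D3:**
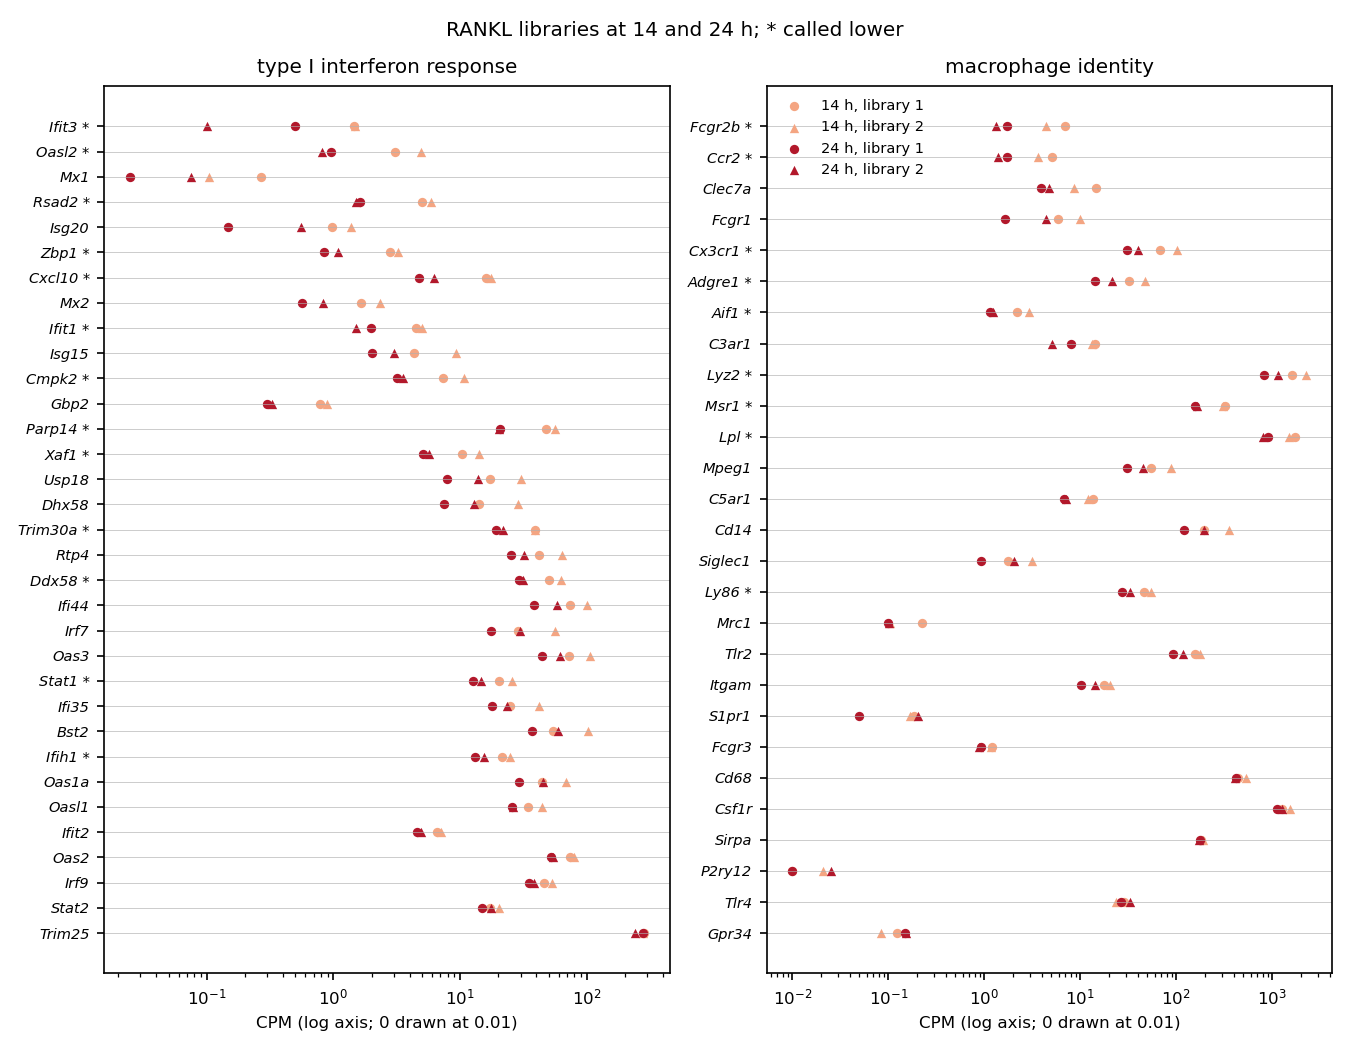
CPM on log axes of each tested member of the interferon and macrophage lists in the 4 libraries, 14 hours in light and 24 hours in dark colour, with circles for library 1 and triangles for library 2. An asterisk marks a called fall. Among the 33 interferon genes 29 had both 24-hour libraries below both 14-hour libraries.

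Among all tested genes 1.78% were called lower, and 10.4% with the block. Of 27 tested macrophage genes none rose and 9 fell (0 and 15 with the block), with a median of -0.79. The count was 3 without 14-hour library 2, 2 without 24-hour library 1 and 4 without 24-hour library 2. Cx3cr1, the fractalkine receptor, on chromosome 9 (119901616 to 120068283, minus strand), had 68.2 and 103 and then 30.6 and 40.1 CPM (-1.27, SE 0.22, adjusted p = 0.00706). Fcgr2b, the inhibitory Fc receptor, had 6.96 and 4.41 and then 1.71 and 1.34 CPM (-1.90, SE 0.29, adjusted p = 0.00258). Msr1, a scavenger receptor, had 327 and 309 and then 157 and 167 CPM (-0.97, SE 0.16, adjusted p = 0.00523). Ccr2, the receptor for monocyte chemoattractants, had 5.04 and 3.67 and then 1.71 and 1.39 CPM (-1.49, SE 0.24, adjusted p = 0.0037). The Fcgr2b call held with each library left out, whereas leaving out 1 library ended that of Cx3cr1 (14-hour library 2, 0.0871, and 24-hour library 1, 0.0795), of Msr1 (24-hour library 1, 0.0524) and of Ccr2 (24-hour library 2, 0.0558).

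The lineage markers differed among themselves. Adgre1, which encodes F4/80 and is taken from the marker list rather than by the rule for named genes, went from 32.4 and 47.9 to 14.3 and 21.5 CPM (-1.17, SE 0.26, adjusted p = 0.027). Lyz2, lysozyme, from the same marker list, went from 1615 and 2281 to 817 and 1155 CPM (-0.98, SE 0.24, adjusted p = 0.0439). The calls of Adgre1 and Lyz2 were lost without 14-hour library 2 (0.245 and 0.328) or 24-hour library 1 (0.195 and 0.27), and that of Lyz2 also without 24-hour library 2 (0.0708). Csf1r, the receptor for the survival factor M-CSF, which osteoclasts keep, had 1282 and 1531 and then 1118 and 1287 CPM, with overlapping times (-0.23, SE 0.15, adjusted p = 0.548). Further genes of the marker list had negative changes that were not called. They were Cd68 (-0.24, adjusted p = 0.378), Itgam (-0.65, 0.0811), Cd14 (-0.79, 0.525), Mpeg1 (-0.90, 0.195) and Spi1 (-0.19, 0.605).

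Among 19 chemokines and their receptors 1 rose and 5 fell (1 and 6 with the block, median -0.56). The shares over all tested genes were 1.13% higher and 1.78% lower (6.44% and 10.4% with the block). Ccr1, a receptor for inflammatory chemokines such as Ccl3 and Ccl9, rose from 4.85 and 3.36 to 17.8 and 11.9 CPM (1.86, SE 0.43, adjusted p = 0.0324). Cxcl14, a chemokine of resting tissues, fell from 37.1 and 28.7 to 7.19 and 5.52 CPM (-2.37, SE 0.29, adjusted p = 0.000605). Cxcl16, a membrane-bound chemokine and scavenger receptor, fell from 49.7 and 63.3 to 20.7 and 27.3 CPM (-1.24, SE 0.15, adjusted p = 0.00051). The remaining 3 falls were Cxcl10, Ccr2 and Cx3cr1, with the values given above. The call of Ccr1 was lost with any of the 4 libraries left out (0.106 without 14-hour library 1, 0.263 without 14-hour library 2, 0.178 without 24-hour library 1 and 0.0693 without 24-hour library 2).

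Of 24 genes of NF-kB feedback and target genes 1 fell and none rose (3 higher and 3 lower with the block, median -0.13). That gene was Ptgs2, the inducible cyclooxygenase, which went from 40.1 and 30.4 to 5.05 and 9.56 CPM (-2.27, SE 0.30, adjusted p = 0.000996) and stayed called with each library left out. Of 13 MHC and costimulation genes none was called (1 higher and 4 lower with the block, median -0.23).

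The lists of fatty acid synthesis, cholesterol synthesis and cholesterol export held called rises and no called falls. The share called higher over all tested genes was 1.13%, and 6.44% with the block. Under RANKL plus I-BET the medians of these lists were 0.28, 0.30 and 0.065, and under I-BET alone 0.27, 0.35 and 0.068. Whether the lists differed between treatments was not tested. Lpin1, a phosphatidate phosphatase of triglyceride and phospholipid synthesis, rose from 6.86 and 10.5 to 31.0 and 24.4 CPM (1.67, SE 0.25, adjusted p = 0.00201). Its changes under RANKL plus I-BET (1.13, SE 0.25) and I-BET alone (1.42, SE 0.25) were not called different from this. Scd1, the stearoyl-CoA desaturase, rose from 36.4 and 75.4 to 143 and 160 CPM (1.44, SE 0.31, adjusted p = 0.023). Lpin1 and Scd1 were the 2 rises among 16 fatty acid genes (6 and 2 with the block, median 0.02). Idi1, an isomerase of the mevalonate pathway, rose from 53.6 and 52.5 to 68.7 and 79.4 CPM (0.48, SE 0.10, adjusted p = 0.0168). It was the 1 call among 24 genes of cholesterol synthesis, of which the block called 11 higher and 2 lower (median 0.27). Abcg1, a cholesterol exporter, rose from 71.0 and 123 to 216 and 215 CPM (1.15, SE 0.28, adjusted p = 0.0442), the 1 call among 11 genes of cholesterol export and storage (1 and 4 with the block, median -0.25). The Lpin1 call held with each of the 4 RANKL libraries left out. Without 14-hour library 1 adjusted p was 0.151 for Scd1, 0.107 for Idi1 and 0.27 for Abcg1, without 24-hour library 2 it was 0.137, 0.189 and 0.173, without 24-hour library 1 it was 0.0605 for Scd1 and 0.129 for Abcg1, and without 14-hour library 2 it was 0.154 for Idi1. Without untreated library 2 it was 0.0657 for Abcg1.

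The lists of energy metabolism had positive medians, and their called genes all rose. Among all tested genes 1.13% were called higher, and 6.44% with the block. Of 21 glycolysis genes 3 rose and none fell (4 and 1 with the block, median 0.11). Pfkm, the muscle form of phosphofructokinase, rose from 12.8 and 16.2 to 20.2 and 28.7 CPM (0.75, SE 0.18, adjusted p = 0.0373). Aldoc, aldolase C, rose from 22.1 and 31.1 to 37.8 and 50.8 CPM (0.73, SE 0.16, adjusted p = 0.0253). Hk1, hexokinase, rose from 94.2 and 112 to 127 and 163 CPM (0.49, SE 0.12, adjusted p = 0.0478). Mdh1, the cytosolic malate dehydrogenase, rose from 203 and 220 to 274 and 322 CPM (0.49, SE 0.10, adjusted p = 0.0131). It was the 1 call among 22 genes of the citric acid cycle and mitochondrial regulators, of which 19 had a positive change (12 higher and 0 lower with the block, median 0.20). Of 35 oxidative phosphorylation genes none was called, 31 had a positive change, and the block called 10 higher and 0 lower (median 0.18). All 4 calls were lost without 14-hour library 1 (Pfkm 0.257, Aldoc 0.213, Hk1 0.315, Mdh1 0.138) and without 24-hour library 2 (0.31, 0.245, 0.36 and 0.174), and those of Pfkm (0.0789), Hk1 (0.0906) and Mdh1 (0.0642) also without 14-hour library 2. Without untreated library 2 adjusted p was 0.0616 for Pfkm and 0.0895 for Hk1.

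Of 22 tested genes of the NRF2 antioxidant response 3 fell and none rose (10 lower and 0 higher with the block, median -0.25). The share called lower among all tested genes was 1.78%, and 10.4% with the block. Txnrd1, thioredoxin reductase, fell from 717 and 636 to 473 and 393 CPM (-0.64, SE 0.15, adjusted p = 0.0315). Abcc1, a glutathione conjugate exporter, fell from 431 and 435 to 324 and 309 CPM (-0.45, SE 0.10, adjusted p = 0.0323). Nqo1, a quinone reductase, was low throughout and went from 0.558 and 0.397 to 0.0991 and 0.126 CPM (-2.06, SE 0.45, adjusted p = 0.0237). The calls of these 3 were lost with any of the 4 libraries left out: without 14-hour library 1 adjusted p was 0.174 for Txnrd1, 0.125 for Abcc1 and 0.146 for Nqo1, without 14-hour library 2 it was 0.0686, 0.149 and 0.0554, without 24-hour library 1 it was 0.0541, 0.105 and 0.148, and without 24-hour library 2 it was 0.216, 0.18 and 0.123.

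Of 13 iron genes 2 fell and none rose (3 lower with the block, median -0.18). Slc11a1, a metal transporter of the phagosome, fell from 138 and 159 to 70.7 and 80.6 CPM (-0.98, SE 0.11, adjusted p = 0.000432) and stayed called with each library left out. Fth1, the ferritin heavy chain, fell from 1648 and 1828 to 1171 and 1252 CPM (-0.52, SE 0.10, adjusted p = 0.0157), which was lost without 14-hour library 2 (0.146), 24-hour library 1 (0.113) or 24-hour library 2 (0.0649). Of 26 genes of ATF4 and amino acid supply none was called (5 higher and 5 lower with the block, median 0.02). Of 20 endoplasmic reticulum chaperones and partners 1 fell, Sel1l, a part of the degradation complex (206 and 237 to 167 and 159 CPM, -0.44, SE 0.10, adjusted p = 0.0373), and none rose (1 and 1 with the block). Its call was lost without 14-hour library 2 (0.277), 24-hour library 1 (0.11), 24-hour library 2 (0.204) or untreated library 2 (0.0516).

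**Figure D4:**
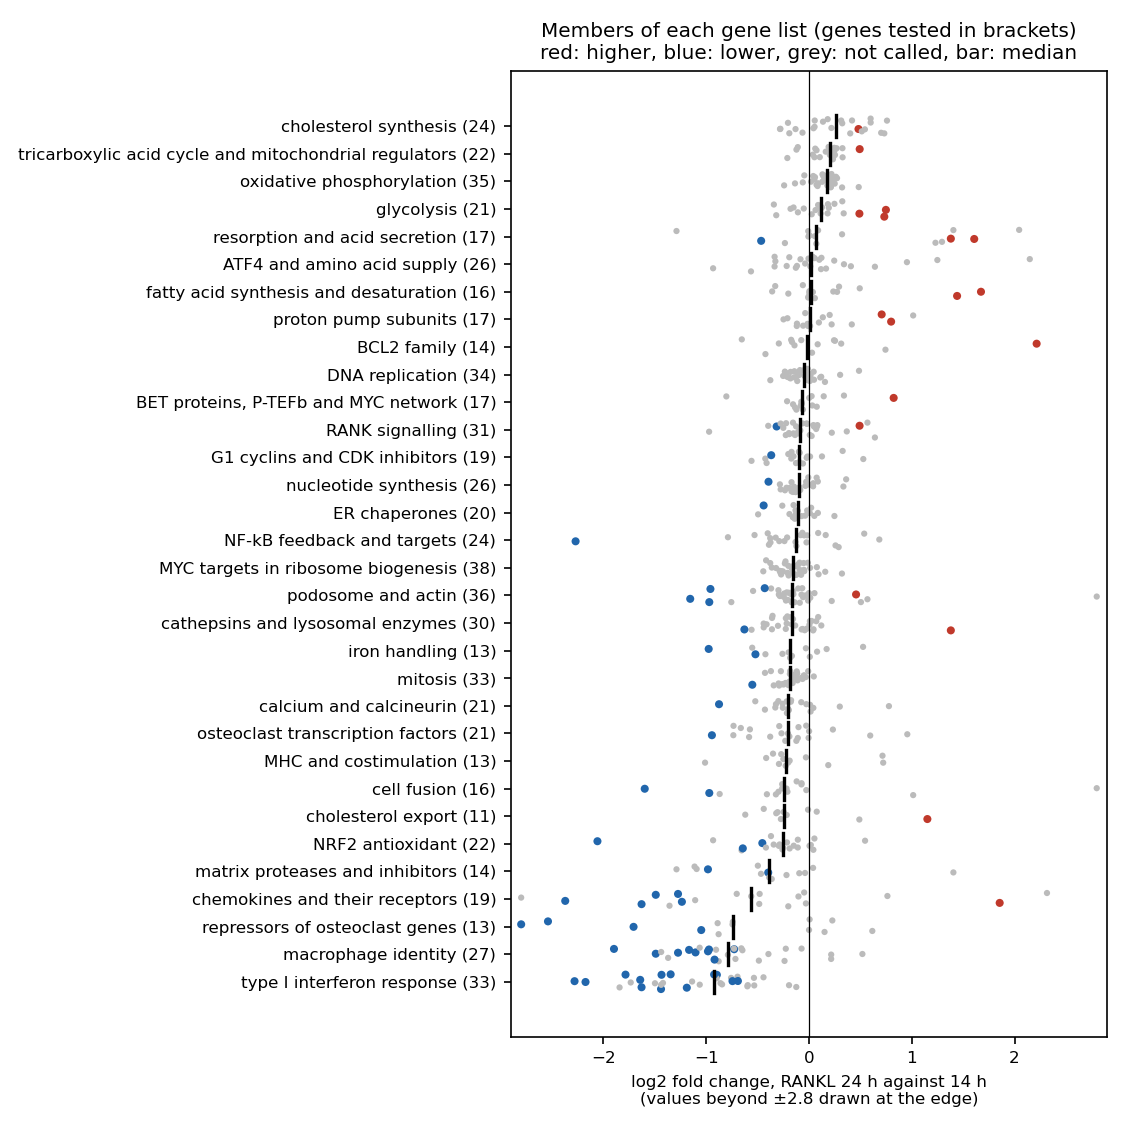
Log2 fold change from 14 to 24 hours of RANKL for every tested member of each gene list with at least 10 tested genes. Points are genes, red for called rises, blue for called falls and grey for genes not called, bars are list medians, and points beyond the axis are drawn at its edge. The interferon (-0.92), macrophage (-0.79) and repressor (-0.74) lists lie lowest and cholesterol synthesis (0.27) highest.

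Of 30 tested cathepsins and lysosomal enzymes 1 rose, Ctsk, and 1 fell. The shares over all tested genes were 1.13% higher and 1.78% lower (6.44% and 10.4% with the block). Whether Ctsk differed from the other members was not tested. The list had a median of -0.16, and with the block 1 was higher and 8 lower. Of 14 matrix proteases and inhibitors 2 fell and none rose (1 higher and 5 lower with the block, median -0.39). Plaur, the urokinase receptor, fell from 78.0 and 103 to 46.5 and 45.2 CPM (-0.98, SE 0.17, adjusted p = 0.00534). Adam9, a membrane metalloprotease, fell from 139 and 146 to 109 and 108 CPM (-0.40, SE 0.08, adjusted p = 0.013). Plaur lost its call without 14-hour library 2 (0.0614) or 24-hour library 2 (0.0593), and Adam9 without 14-hour library 2 (0.105), 24-hour library 1 (0.0714) or 24-hour library 2 (0.0928).

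Podosomes are the actin-based contacts from which the sealing zone of the osteoclast forms. Of 36 tested podosome and actin genes 1 rose and 4 fell (4 and 12 with the block, median -0.16). All tested genes had shares of 1.13% higher and 1.78% lower (6.44% and 10.4% with the block). Itga5, the fibronectin receptor subunit alpha5, fell from 323 and 361 to 159 and 148 CPM (-1.16, SE 0.14, adjusted p = 0.000494). Actg1, gamma-actin, fell from 354 and 404 to 173 and 218 CPM (-0.96, SE 0.11, adjusted p = 0.000494). Rac2, a GTPase of blood cells that remodels actin, rose from 221 and 257 to 309 and 349 CPM (0.46, SE 0.09, adjusted p = 0.0129). Itga5 and Actg1 stayed called with each library left out, whereas Rac2 lost its call without 14-hour library 1 (0.157) or 24-hour library 2 (0.162).

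Few cell cycle genes were called, but only 2.9% of all tested genes were, so the low counts of calls do not set these lists apart. Of 34 DNA replication genes none was called (2 higher and 5 lower with the block, median -0.05). Of 33 mitosis genes 1 fell and none rose, and 32 had a negative change (9 lower with the block, median -0.19). That gene was Anln, anillin, which organises the cleavage furrow and went from 351 and 296 to 223 and 218 CPM (-0.55, SE 0.10, adjusted p = 0.00761). Of 19 G1 cyclins and inhibitors Cdc25a, the phosphatase that releases CDK2, fell from 118 and 126 to 94.3 and 95.0 CPM (-0.37, SE 0.08, adjusted p = 0.0179), and none rose (2 higher and 5 lower with the block). Without 14-hour library 1 adjusted p was 0.0944 for Anln and 0.0501 for Cdc25a, without 24-hour library 1 it was 0.0505 and 0.0991, without 24-hour library 2 it was 0.0659 and 0.0987, and without 14-hour library 2 it was 0.162 for Cdc25a.

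Myc, the growth factor-induced transcription factor named in the study's title, had 235 and 233 CPM at 14 hours and 145 and 123 CPM at 24 hours. The times did not overlap, and the change of -0.80 (SE 0.30) had an adjusted p of 0.213 and of 0.00583 with the block. Among 17 genes of BET proteins, P-TEFb and the MYC network 1 rose, Mxd4, which encodes an antagonist of MYC at shared binding sites (4.58 and 6.83 to 8.05 and 12.2 CPM, 0.82, SE 0.20, adjusted p = 0.0456), and none fell (2 and 1 with the block). Its call was lost without 14-hour library 1 (0.308), 24-hour library 2 (0.35) or untreated library 2 (0.0639). Of 38 MYC target genes of ribosome biogenesis none was called, and the block called 1 higher and 12 lower (median -0.16). Of 26 nucleotide synthesis genes 1 fell, Adsl, an enzyme of purine synthesis (138 and 148 to 111 and 107 CPM, -0.39, SE 0.08, adjusted p = 0.0187), with 2 higher and 4 lower by the block. The Adsl call was lost without 14-hour library 2 (0.149), 24-hour library 1 (0.077) or 24-hour library 2 (0.135). Of 14 BCL2 family genes 1 rose, Bmf, a pro-apoptotic BH3-only protein (1.73 and 2.96 to 7.16 and 14.7 CPM, 2.22, SE 0.34, adjusted p = 0.00256), and none fell (3 and 2 with the block). The Bmf call held with each library left out. Bmf had 23.6 and 33.3 CPM in untreated cells and 8.07 and 10.1 CPM at 4 hours of RANKL. Its 24-hour levels thus stayed below those at hour 0.

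The largest rises among called genes with a mean of at least 5 CPM lay mostly outside these lists. Rab15, a small GTPase of endosomal recycling, on chromosome 12 (76797960 to 76822908, minus strand), had 8.20 and 14.5 CPM at 14 hours and 78.9 and 129 CPM at 24 hours. It was at 0.311 and 0.387 CPM in untreated cells and at most at 0.159 CPM after 4 hours of RANKL. Rab15 rose by 3.19 (log2, SE 0.34, adjusted p = 0.000432). Rnf144b, a RING-type ubiquitin ligase, had 1.94 and 1.48 and then 8.70 and 11.6 CPM (2.56, SE 0.24, adjusted p = 0.000119). Fam13c, Sema4g, Vsig10 and Hyal1 rose by 2.03, 1.85, 1.75 and 1.63 (SE 0.32, 0.20, 0.24 and 0.19), with adjusted p of 0.00287, 0.000421, 0.00115 and 0.000476. Fam13c had 35.9 and 46.6 CPM in untreated cells, 3.92 and 6.03 CPM at 14 hours and 14.5 and 26.3 CPM at 24 hours. Its 24-hour levels thus stayed below those at hour 0. Sema4g is a class 4 semaphorin and Hyal1 a lysosomal hyaluronidase, whose exon bases overlap those of Naa80 on the same strand by 50.8%, so that their reads may not be told apart. Bmf, Ccr1 and Lpin1 also belong here, with the values given above. Below 5 CPM, Prss35, which encodes a serine protease-like protein and was chosen after its values were seen, had 0 and 0.0209 CPM and then 1.88 and 5.88 CPM. It was called (adjusted p = 0.0143) but not without 14-hour library 1 (0.0934), 14-hour library 2 (0.0828) or 24-hour library 2 (0.0614), and no fold is given because 14 hours rest on 1 count in all. The calls of Rab15, Rnf144b, Fam13c, Sema4g, Vsig10 and Hyal1 held with each of the 4 RANKL libraries left out.

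The largest falls by the same rule were led by Cxcl14 and Ptgs2. Clec4e, which encodes the pathogen receptor Mincle, had 96.8 and 92.2 and then 22.6 and 28.3 CPM (-1.89, SE 0.16, adjusted p = 9.94e-05). Gpr84, a receptor for medium-chain fatty acids, had 17.0 and 26.2 and then 5.15 and 6.61 CPM (-1.88, SE 0.28, adjusted p = 0.00201). Itgal, the alpha subunit of the leukocyte integrin LFA-1, had 10.2 and 8.06 and then 2.13 and 3.08 CPM (-1.81, SE 0.21, adjusted p = 0.000441). Lsp1, a leukocyte actin-binding protein, had 12.5 and 18.5 and then 4.53 and 4.97 CPM (-1.70, SE 0.19, adjusted p = 0.000432). Dab2, an endocytic adaptor, had 81.9 and 80.9 and then 23.9 and 26.1 CPM (-1.70, SE 0.26, adjusted p = 0.00256). These 5, Cxcl14 and Ptgs2 stayed called with each library left out.

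The last 3 of these falls depended on single libraries. Pmepa1, a membrane protein induced by TGF-beta, fell from 81.4 and 61.3 to 20.3 and 18.9 CPM (-1.86, SE 0.38, adjusted p = 0.018). Rbfox1, a splicing factor best known from neurons and muscle, fell from 52.2 and 38.4 to 15.5 and 12.2 CPM (-1.71, SE 0.33, adjusted p = 0.0119). Ms4a6c, a membrane protein of myeloid cells, fell from 8.34 and 14.6 to 2.70 and 4.06 CPM (-1.76, SE 0.43, adjusted p = 0.0432). Pmepa1 and Rbfox1 lost their calls without 14-hour library 1 (0.107 and 0.0875), 24-hour library 1 (0.0982 and 0.0513) and 24-hour library 2 (0.14 and 0.125). Ms4a6c lost its call without 14-hour library 2 (0.303), 24-hour library 1 (0.244), 24-hour library 2 (0.132) or untreated library 2 (0.051). Over 10% of exon bases overlap those of a gene on the opposite strand for Ms4a6c (53.1%), Gpr84 (39.5%), Cxcl16 (18.3%), Csf1r (15.1%), Fam13c (12.8%) and Acp2 (12.6%), and those of a gene on the same strand for Pfkm (10.2%). The strand setting of the counting was not given in the labels or file headers, so the values of these genes are uncertain to that extent.

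Most called rises were highest, and most called falls lowest, at the end of the course. Over the group means at 0, 4, 14 and 24 hours, 138 of the 181 rises were highest at 24 hours and 38 in untreated cells, and 96 were lowest at 14 hours and 66 at 4 hours. Of the 285 falls 243 were lowest at 24 hours, and 162 were highest at 4 hours, 64 at 14 hours and 59 in untreated cells. The choice of the genes by the last step fixes part of these counts, so they are given as a description. Clec4e was highest at 4 hours and lowest at 24 hours, with 144 and 143 CPM in untreated cells, 416 and 541 CPM at 4 hours and the values above afterwards. Ptgs2 went from 51.2 and 39.8 CPM to 225 and 206 CPM at 4 hours before its later fall. Rnf144b was lowest at 4 hours and highest at 24 hours, with 6.01 and 7.30 CPM untreated, 1.19 and 1.11 CPM at 4 hours, 1.94 and 1.48 CPM at 14 hours and 8.70 and 11.6 CPM at 24 hours.

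The same 10 hours were then examined with I-BET present, from libraries that are not shared with the RANKL groups. Of the 181 rises 153 (84.5%) had a positive change under RANKL plus I-BET, with a median of 0.28, against 49.2% of all tested genes. Under I-BET alone 136 (75.1%) were positive, with a median of 0.15, against 48.3% of all tested genes. Of the 285 falls 257 (90.2%) had a negative change under RANKL plus I-BET (median -0.31) and 213 (74.7%) under I-BET alone (median -0.12), against 50.5% and 51.4% of all tested genes. The medians under RANKL itself were 0.87 and -0.79.

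The difference between the steps was tested for each gene. The step under RANKL differed from that under RANKL plus I-BET in 7 genes, 0.0436% of those tested, with 3 higher (0.0187%) and 4 lower (0.0249%), and with the block in 1.83%, with 138 higher (0.86%) and 156 lower (0.972%). At an unadjusted p under 0.05 there were 782 genes. Against I-BET alone it differed in 39 genes (0.243%), 15 higher (0.0935%) and 24 lower (0.15%), and with the block in 5.07%, with 323 higher (2.01%) and 490 lower (3.05%). The groups of this last comparison differ in both RANKL and I-BET, so effects of adding RANKL and of lacking I-BET cannot be told apart. The fits of only the 8 libraries of each comparison called none, with 539 and 854 genes at an unadjusted p under 0.05. The counts against RANKL plus I-BET ran from 0 to 3 higher and from 1 to 4 lower with 1 of the 8 libraries left out, and those against I-BET from 2 to 10 and from 4 to 24.

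Lsp1 differed in both tests and kept its call with each of the 8 libraries left out. Lsp1 fell under RANKL but had 27.6 and 36.4 CPM at 14 hours and 56.3 and 62.8 CPM at 24 hours of RANKL plus I-BET, and 47.8 and 52.5 and then 89.2 and 89.4 CPM under I-BET. Its step under RANKL was lower by 2.60 than that under RANKL plus I-BET (SE 0.26, adjusted p = 0.00175). Id1 went from 2.82 and 2.79 to 1.32 and 0.854 CPM under RANKL plus I-BET, so its fall under RANKL differed by -3.54 (SE 0.55, adjusted p = 0.0444). Lpin2 and Kctd12, chosen after their values were seen, had the next lowest adjusted p (0.00619 each). Lpin2, a relative of Lpin1, rose from 33.1 and 34.5 to 69.6 and 73.8 CPM under RANKL, a step that was higher by 0.90 than with I-BET present. Kctd12, a partner of GABA receptors, fell from 13.6 and 11.9 to 6.76 and 7.57 CPM, a step lower by 1.26. The remaining 3 calls were Rnf24 and Hspa4l with a higher and Slc44a1 with a lower step. Leaving out 1 of the 8 libraries ended the calls of Id1, Hspa4l and Slc44a1 in 7 cases each, of Rnf24 in 8, of Lpin2 in 6 and of Kctd12 in 4, with the highest adjusted p at 0.244.

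For Car2 and Ctsk, the resorption genes called higher under RANKL, the step was not called different from that under RANKL plus I-BET and was called different from that under I-BET alone. Car2 had 55.6 and 62 and then 61.2 and 79.7 CPM under RANKL plus I-BET, and the difference between the steps of 1.35 (SE 0.22) had an adjusted p of 0.0597, and of 2.7e-06 with the block. Ctsk had 5.27 and 4.67 and then 7.44 and 6.67 CPM there, a difference of 0.87 (SE 0.24) with an adjusted p of 0.40 and of 0.0539 with the block. Against I-BET alone both were called, by 1.50 for Car2 (SE 0.22, adjusted p = 0.017) and by 1.48 for Ctsk (SE 0.24, adjusted p = 0.0281). That comparison changes RANKL and I-BET at once, so their effects cannot be told apart. Leaving out 1 of those 8 libraries ended the call of Car2 in 5 cases and that of Ctsk in 6, with the highest adjusted p at 0.113 and 0.123.

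Among further falling genes, Clec4e was called in 1 of the 2 tests and Cxcl10 and Bcl6 in neither. Clec4e went from 38.0 and 39.6 to 18.5 and 15.2 CPM under RANKL plus I-BET, a difference of -0.69 that was not called (SE 0.22, adjusted p = 0.611), and from 33.5 and 32.2 to 35.6 and 26.1 CPM under I-BET, where the step differed by -1.80 (SE 0.22, adjusted p = 0.00624). Cxcl10 went from 8.61 and 8.57 to 4.11 and 2.62 CPM under RANKL plus I-BET and from 4.16 and 2.84 to 2.65 and 2.43 CPM under I-BET. The Cxcl10 steps differed by -0.27 (adjusted p = 0.9999) and -1.16 (adjusted p = 0.29), and neither passed. Bcl6 had 28.5 and 24.9 and then 22 and 22.5 CPM under RANKL plus I-BET, with a difference of -0.78 (SE 0.24, adjusted p = 0.541, 0.00701 with the block). Against I-BET alone the Bcl6 difference was -1.25 (SE 0.24, adjusted p = 0.0541, 3.69e-05 with the block).

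**Figure D5:**
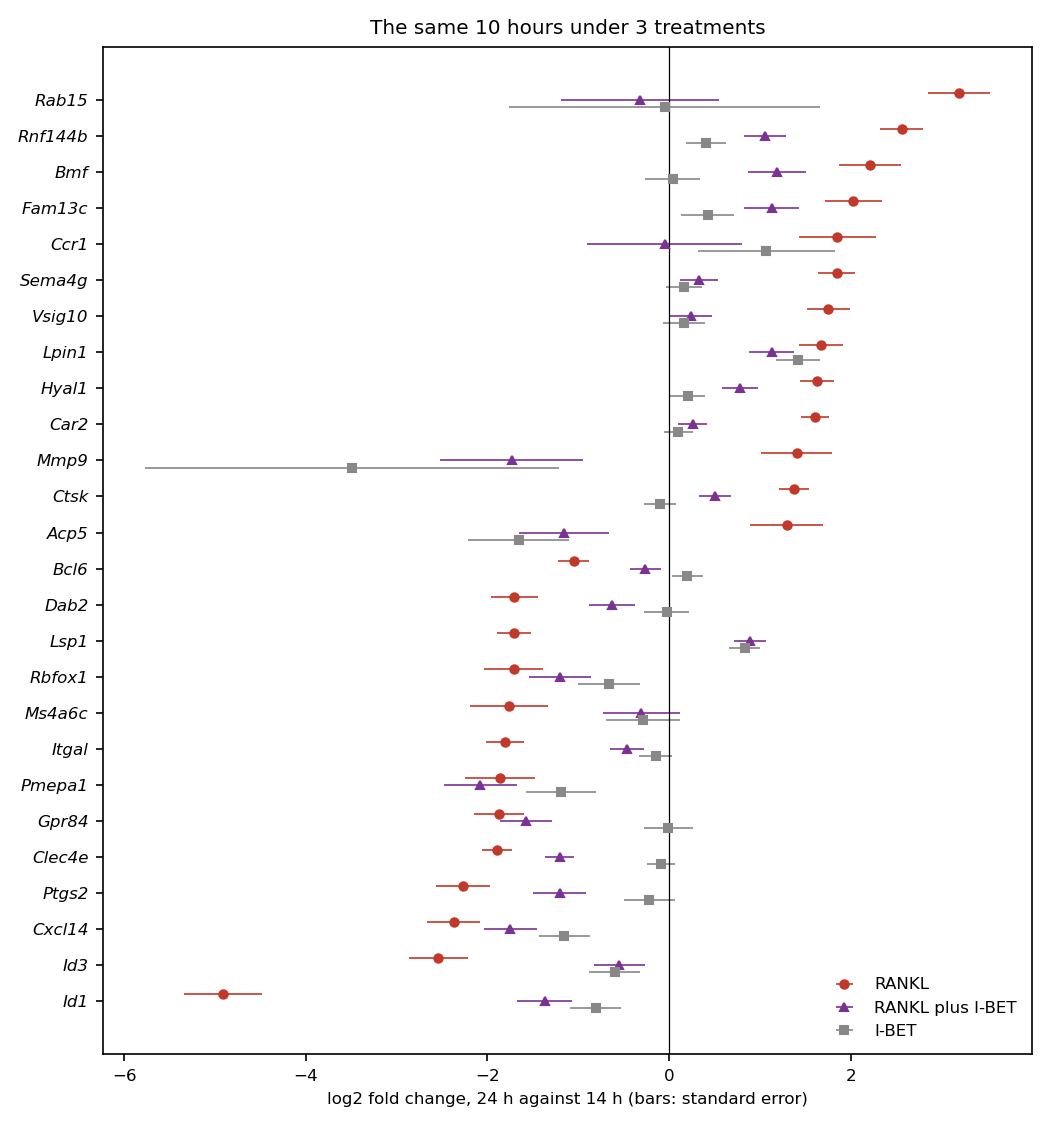
Log2 fold change from 14 to 24 hours under RANKL (circles), RANKL plus I-BET (triangles) and I-BET (squares) for the largest rises, the largest falls and further named genes, with bars for the standard error. Lsp1 fell under RANKL (-1.70) and had positive values of 0.90 and 0.83 under the other treatments.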

How the data were processed

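Poly(A) RNA of 20 libraries from RAW264.7 cells was sequenced in pairs of 100 bases, per the labels. Raw counts per gene and RPKM were deposited by the authors for all 20 libraries, and the submitters' processing notes name FastQC, STAR 2.5.3a, GRCm38/mm10 and DESeq2 1.16.1. No source used here gives the counting tool or its strand setting. The deposited RPKM are the same counts per gene length and total, so they served only to set levels of different genes side by side.

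Counts of all 20 libraries (10 groups of 2) were fitted with edgeR 4.0.16 (R 4.3.3, TMM factors, filterByExpr, robust quasi-likelihood F test, 10 residual degrees of freedom). CPM use TMM-scaled library sizes, and a standard error is the log2 fold change divided by the root of F. Of 50686 genes 16042 passed the filter. Symbols came from the deposited table for 42745 genes and from GENCODE by gene ID for 7915, also where the deposited table uses an older symbol. Gene positions are those of the deposited table, and overlaps of exons are from GENCODE.

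The labels number the libraries of each group. Same-numbered libraries deviated together in all 45 pairs of groups (correlation of deviations 0.349 to 0.846, median 0.646, and 0.653 between 14 and 24 hours of RANKL). The fit with the number as a block is therefore given where it changes a call or count between 14 and 24 hours of RANKL. For the differences between steps it is given for the counts and for some genes only. The biological coefficient of variation was 0.162 without and 0.0751 with the block. The labels do not say what the number stands for.

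Named genes are 18 fixed genes, the 10 called genes with the highest and the 10 with the lowest log2 fold change (mean of at least 5 CPM, libraries not overlapping), and, from each of 36 lists, at most 4 called genes, taken by adjusted p. A few named genes are not reported here. Members and lists were chosen with earlier results of these data known. Alternatives were the replicate block, RLE size factors, 2 other filters, DESeq2 1.42.0, only the libraries compared, and each library left out. The fits were tested on simulated data.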

Additional observations from a re-analysis of the deposited data

Results flagged for a closer look

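In 10 named genes the step from 14 to 24 hours of RANKL differed from the step over the same hours in another treatment, by the test of the difference itself in edgeR. Values are differences of log2 fold changes, with 2 libraries in each of the 4 groups compared, and negative values mean a lower step under RANKL. Against I-BET alone the groups differ in both RANKL and I-BET, so effects of adding RANKL and of lacking I-BET cannot be told apart.

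Against RANKL plus I-BET, Lsp1 differed by -2.60 (SE 0.257, adjusted p = 0.00175) and Id1 by -3.54 (SE 0.554, adjusted p = 0.0444). The Lsp1 call held with each of the 8 libraries left out, and the Id1 call was lost in 7 of the 8 cases (highest adjusted p 0.223, without RANKL plus I-BET 14-hour library 1).

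Against I-BET alone, 5 genes that rose under RANKL had a higher step: Ctsk by 1.48, Rnf144b by 2.15, Sema4g by 1.68, Hyal1 by 1.42 and Car2 by 1.50. Genes that fell under RANKL had a lower step: Clec4e by -1.80, Itgal by -1.66, Lsp1 by -2.54, Id1 by -4.11 and Fcgr2b by -2.42. The adjusted p were 0.0281 for Ctsk, 0.0172 for Rnf144b, 0.0285 for Sema4g, 0.0487 for Hyal1 and 0.017 for Car2, and 0.00624 for Clec4e, 0.0282 for Itgal, 0.00111 for Lsp1, 0.00771 for Id1 and 0.0282 for Fcgr2b. Lsp1 and Clec4e stayed called with each of the 8 libraries left out (highest adjusted p 0.0157 and 0.0435). The others lost the call in 2 of 8 cases for Id1 (0.0594), 4 for Itgal (0.126), 5 for Rnf144b (0.0982) and Car2 (0.113), 6 for Ctsk (0.123), 7 for Sema4g (0.134) and Fcgr2b (0.123), and 8 for Hyal1 (0.26). Without untreated library 2 the adjusted p was 0.0542 for Sema4g and 0.0841 for Hyal1.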

How the results depend on the processing

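For the change from 14 to 24 hours of RANKL, 181 genes higher and 285 lower became 1033 and 1674 with the replicate block, 272 and 538 with no low-count filter, 372 and 581 with DESeq2, and 0 and 0 with only the 4 libraries of the comparison. All 466 called genes remained called with the block. RLE size factors gave 188 and 277 and a filter of at least 1 CPM in 2 libraries 262 and 298. Leaving out 1 library, untreated library 2 included, gave 57 to 170 higher and 99 to 248 lower. For the difference from RANKL plus I-BET, 3 higher and 4 lower became 138 and 156 with the block, 71 and 61 with no filter, 9 and 5 with the CPM filter, 46 and 32 with DESeq2, and 0 and 0 with only the 8 libraries, and leaving out 1 library gave 0 to 3 and 1 to 4. For the difference from I-BET, 15 and 24 became 323 and 490 with the block, 73 and 152 with no filter, 85 and 132 with DESeq2, and 0 and 0 with only the 8 libraries, and leaving out 1 library gave 2 to 10 and 4 to 24. Of 67 named called genes 38 lost the call with 1 of the 4 RANKL libraries left out and 29 kept it. With no filter 9 lost it (Acp2, Syk, Plcg2, Adsl, Idi1, Hk1, Adam9, Rac2 and Cdc25a) and 7 gained it (Fos, Prdm1, Irf8, Myc, Acp5, Mmp9 and Atp6v0d2), and with the CPM filter 3 lost it (Plcg2, Txnrd1 and Abcc1). For the change from 14 to 24 hours of RANKL the block changed the call of 8 named genes, each given with its value above, and of no other. In the difference tests it changed further calls of named genes, not all of which are given. Against RANKL plus I-BET, for example, adjusted p went from 0.166 to 0.0108 for Rnf144b and from 0.130 to 0.00185 for Itgal. Changes of sign concerned genes not called: Ocstamp ran from -0.48 to 0.16 and Tnfrsf11a from -0.47 to 0.10 with 1 library left out, and Tnfrsf11a was 0.074 without 14-hour library 1. The fit without untreated library 2 was chosen after seeing the data. Where a group is left with 1 library, that library is assumed to vary like the other groups. The causes of these differences were not tested. Low counts limit Itgb3, Oscar and Calcr.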
